A study of Mus musculus with 10 samples.

Results

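The 10 genes considered here, of lipid droplets and of triglyceride synthesis and breakdown, were compared between cardiomyocytes of the atria and cardiomyocytes of the ventricles of mice. They were chosen by name as 4 perilipins (Plin2, Plin3, Plin4 and Plin5), the 2 diacylglycerol acyltransferases (Dgat1 and Dgat2), and Pnpla2, Abhd5, Lipe and Mgll, which act in the breakdown of stored triglyceride. All 10 symbols were found among the 25239 symbols of the tables, and all 10 passed the filter on low values, which asked for a mean of 10 normalized reads or more and which 12422 symbols passed in all. RNA sequencing was done on total RNA from 5 atrial and 5 ventricular libraries of wild-type (WT) mice, and no treatment, age, sex or strain is named in the sources used here. Levels are in normalized reads, the authors' counts after division by each library's size factor.

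Cardiomyocytes store fatty acids as triglyceride in small cytosolic droplets and release them again for oxidation in mitochondria. Perilipins coat the droplet and govern the access of lipases, the acyltransferases DGAT1 and DGAT2 make the last step of triglyceride synthesis, and lipolysis runs in sequence through ATGL (Pnpla2) with its coactivator CGI-58 (Abhd5), hormone-sensitive lipase (Lipe) and monoacylglycerol lipase (Mgll). In heart muscle ATGL is the main triglyceride lipase, and PLIN5 holds droplets close to mitochondria and restrains ATGL.

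Recovered reads per library ran from 3893406 to 12575523 in atrial and from 1790402 to 12842635 in ventricular libraries. Replicates 1 and 2 of both chambers (4 libraries, 1790402 to 4445287 reads) stood apart from replicates 3 to 5 (6 libraries, 11163805 to 12842635 reads), with 0.215% to 0.480% against 23.1% to 29.8% of reads on the ribosomal RNA precursor Rn45s. This division is seen in the data and is absent from the labels. Both chambers are in each set, so chamber differences are also given within sets. Chamber markers went with the labels: Myl7 ran from 17199 to 19625 normalized reads in atrial and from 92.7 to 536 in ventricular libraries, and Myl2 from 39.2 to 142 and from 84876 to 134251. Nppa did too, at 47983 to 303443 in atrial and 1959 to 22305 in ventricular libraries. Its ventricular values were higher in replicates 1 and 2 (8065 and 22305) than in replicates 3 to 5. Tnnt2, a cardiomyocyte marker, was 1.40-fold higher in ventricular libraries, without overlap (limma, adjusted p = 0.0513). The 6 cardiomyocyte markers summed to 292578 to 432203 in atrial and 334261 to 441901 in ventricular libraries. Of the 6, Pln alone had an adjusted p under 0.05 (limma, 2.28e-05), where 6.56% of all genes tested were called toward ventricular cells. It was 7.11-fold higher in ventricular libraries, without overlap. Markers of other cells were present too. In bulk libraries of this kind fewer cells of a type and less RNA per cell cannot be told apart.

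Plin5, Dgat2 and Plin3 were higher in ventricular cardiomyocytes, and Mgll was higher in atrial cardiomyocytes. These were the 4 of 10 genes that passed the test, 3 toward ventricular and 1 toward atrial cells (limma, adjusted p under 0.05 over all 12422 genes), where 6.56% of all genes tested were called toward ventricular and 8.12% toward atrial cells. Of the 10 estimates, 9 were negative, that is toward ventricular cells, and their median was -0.42 on the log2 scale against -0.01 for all genes tested. The same 4 genes were called by edgeR (7.37% of all genes ventricular and 8.83% atrial) and by DESeq2 (9.81% and 10.9%) on the recovered reads. With library set as a term the calls were 5 ventricular and 1 atrial (15.8% and 16% of all genes). With libraries scaled to equal totals, Rn45s reads included, they were 2 and 1 (4.34% and 8.16% of all genes). Within replicates 3 to 5 they were 6 and 1 (26.6% and 26.2%), and within replicates 1 and 2 they were 3 and 0 (2.04% and 3.09%). Groups did not overlap for 3 genes with ventricular cells higher and for 0 with atrial cells higher, a pattern of 6.55% and 7.84% of all genes. With the replicate number as a block Plin2 and Pnpla2 were also called toward ventricular cells, which made 5 ventricular and 1 atrial calls, where 16% and 16.3% of all genes were called in these directions. Between libraries of the same replicate number the ventricular value was the higher in 5 of 5 pairs for 7 of the 10 genes, a pattern shown by 20.7% of all genes tested, and the atrial value was the higher in 5 of 5 pairs for Mgll alone, a pattern of 20.2% of all genes.

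**Figure D1:**
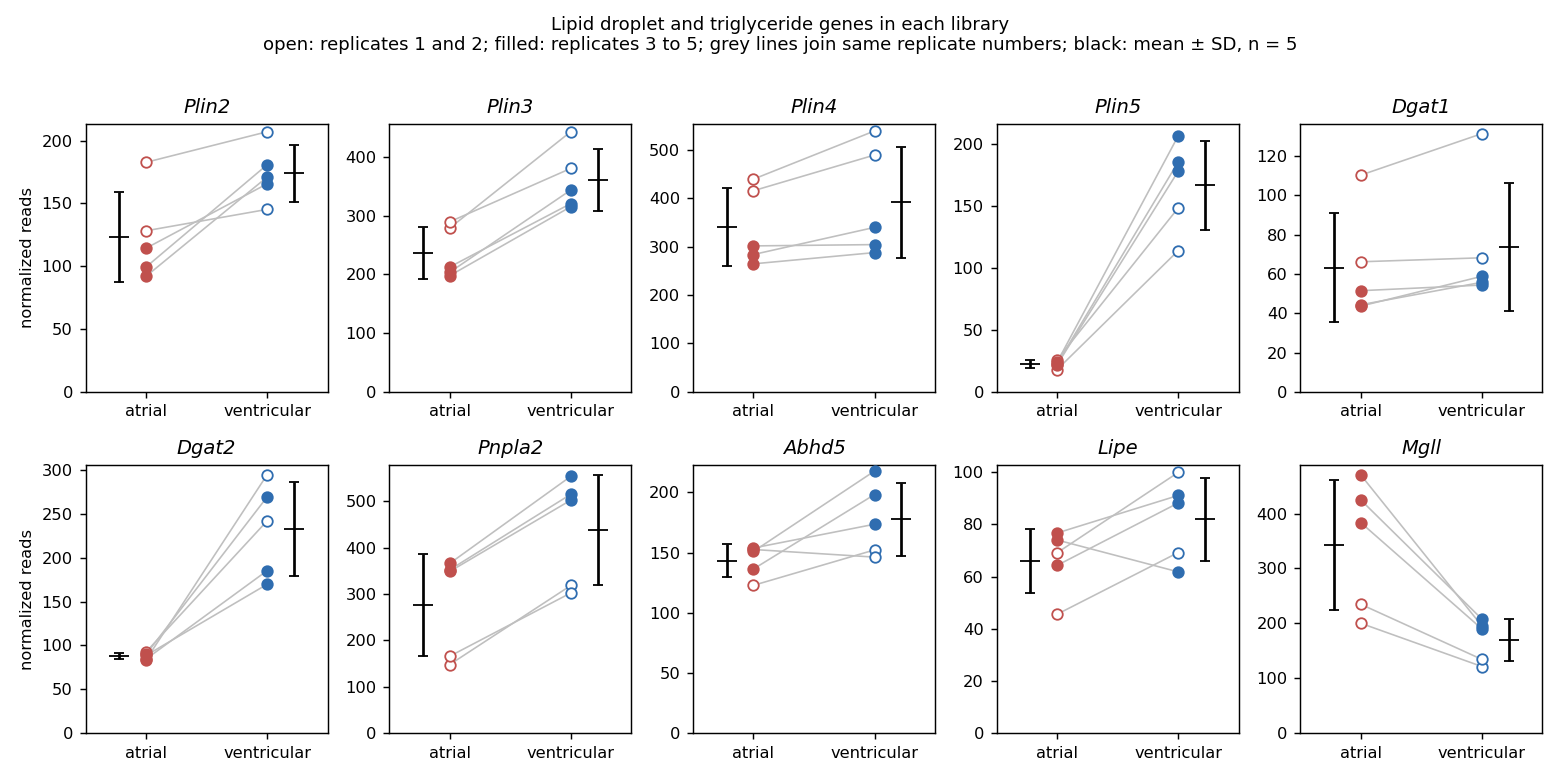
Normalized reads of each of the 10 genes in every library, atrial (red) and ventricular (blue), with open points for replicates 1 and 2, filled points for replicates 3 to 5, grey lines joining libraries of the same replicate number, and the mean ± SD of 5 libraries in black. Plin5, Dgat2 and Plin3 have no atrial point as high as any ventricular point, and the lines of Mgll all fall from atrial to ventricular.

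Plin5, the perilipin of oxidative tissues, had the largest difference of the 10 genes (ENSMUSG00000011305, GRCm38 chromosome 17, 56111601 to 56117596, minus strand). It stood at 17.9, 25.9, 23.9, 21.8 and 22.5 normalized reads in atrial replicates 1 to 5 and at 114, 149, 207, 178 and 186 in ventricular replicates 1 to 5. The chambers did not overlap, and the lowest ventricular value was that of replicate 1. The means were 22.4 ± 2.95 in atrial and 167 ± 36.1 in ventricular cells (SD, n = 5), 7.45-fold higher in ventricular cells, and the log2 difference (atrial minus ventricular, on log2 of normalized reads + 1) was -2.82 ± 0.19 (SE; limma, adjusted p = 3.98e-06). Within pairs the ventricular value was 5.74 to 8.67 times the atrial one. The log2 difference was -2.54 in replicates 1 and 2 (adjusted p = 0.00882) and -3.01 in replicates 3 to 5 (adjusted p = 1.63e-17), and Plin5 was called under each of the 22 alternative settings. Its counts ran from 13 to 334 reads per library, so the atrial level is the less precise. Replicates 3 to 5 of a chamber were close to each other, and nothing states that they came from separate animals, so the small p-values there may measure technical spread in part.

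Plin3, a widely expressed perilipin that moves between cytosol and droplet surface (ENSMUSG00000024197, chromosome 17, 56277476 to 56292873, minus strand), was also higher in ventricular cells, by less. Its values were 279, 289, 212, 203 and 198 normalized reads in atrial replicates 1 to 5 and 443, 380, 320, 343 and 315 in ventricular replicates 1 to 5. The chambers did not overlap, although the atrial libraries of replicates 1 and 2 came near the lowest ventricular ones. The means were 236 ± 44.0 and 360 ± 52.8 (SD, n = 5), 1.53-fold, and the log2 difference came to -0.61 ± 0.15 (SE; limma's adjusted p = 0.0187; 0.000610 with the replicate block). The call was lost when libraries were scaled to equal totals (-0.55, adjusted p = 0.188). Those totals include the Rn45s reads, whose share differed between library sets, and their part in the lost call was not tested. The call was also narrowly lost without atrial replicate 3, 4 or 5 (adjusted p = 0.0536, 0.0549 and 0.0546). Within replicates 1 and 2 Plin3 differed by -0.53 and did not pass (limma, adjusted p = 0.221), where 2.04% of all genes were called toward ventricular cells. Within replicates 3 to 5 it differed by -0.67 (adjusted p = 8.59e-09).

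Plin2, the perilipin found on droplets of most cells (ENSMUSG00000028494, chromosome 4, 86648386 to 86670060, minus strand), had higher ventricular values in each pair but overlapping groups. It stood at 128, 183, 99.4, 114 and 92.0 normalized reads in atrial replicates 1 to 5 and at 145, 207, 181, 166 and 171 in ventricular replicates 1 to 5. Replicate 2 was the highest library in both chambers. The means were 123 ± 36.0 and 174 ± 22.6 (SD, n = 5), with a log2 difference of -0.53 ± 0.19 that did not pass the test (limma, adjusted p = 0.0935; 95% interval -0.94 to -0.11) and did with the replicate block (adjusted p = 0.0179). It was also called without atrial replicate 2 (-0.68, adjusted p = 0.0127) and within replicates 3 to 5 (-0.76, adjusted p = 1.81e-07). Within replicates 1 and 2 it differed by -0.18 (adjusted p = 0.828).

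Plin4, a perilipin of fat and striated muscle with a long stretch of repeats (ENSMUSG00000002831, chromosome 17, 56100591 to 56109803, minus strand), did not pass the test. Its values were 440, 416, 284, 265 and 302 normalized reads in atrial replicates 1 to 5 and 540, 490, 340, 288 and 305 in ventricular replicates 1 to 5. The library sets were further apart than the chambers, with replicates 1 and 2 high in both. The means were 341 ± 80.6 and 392 ± 115 (SD, n = 5), and the log2 difference came to -0.18 ± 0.22 (SE; limma's adjusted p = 0.704; 95% interval -0.67 to 0.30; adjusted p = 0.0872 with the block). Its exons share 17 of 5777 bases with Hdgfl2 on the opposite strand, which did not pass the test either (-0.21, adjusted p = 0.486).

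Plin4, Plin5 and Plin3 lie on the same strand within 192283 bases of chromosome 17, with 1797 bases between the Plin4 and Plin5 gene models and 159879 between Plin5 and Plin3. Of the 3, Plin5 differed by -2.82, Plin3 by -0.61 and Plin4 by -0.18. Upstream sequence from RefSeq (build GRCm38.p6) is shown for Plin5 and its neighbour Plin4, which differed unequally between chambers, for Plin2, and for Mgll, the gene that went the other way. Each run is written 5′ to 3′ on the gene's strand and ends before the first base of the gene model. Capitals mark AGGTCA or its reverse complement, the core hexamer bound by many nuclear receptors, among them the PPARs and ERRs that regulate fat oxidation in muscle.
Plin5, chr17:56117597-56117798, minus strand: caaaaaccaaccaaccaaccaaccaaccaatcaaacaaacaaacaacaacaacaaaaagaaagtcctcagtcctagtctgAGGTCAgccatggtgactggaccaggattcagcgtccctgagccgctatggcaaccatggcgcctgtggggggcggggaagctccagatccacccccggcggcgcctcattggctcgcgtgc
Plin4, chr17:56109804-56110032, minus strand: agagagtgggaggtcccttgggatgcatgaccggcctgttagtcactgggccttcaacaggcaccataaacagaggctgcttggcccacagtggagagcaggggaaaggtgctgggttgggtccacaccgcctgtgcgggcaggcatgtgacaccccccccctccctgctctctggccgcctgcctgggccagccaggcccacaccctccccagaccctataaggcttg
Plin2, chr4:86670061-86670309, minus strand: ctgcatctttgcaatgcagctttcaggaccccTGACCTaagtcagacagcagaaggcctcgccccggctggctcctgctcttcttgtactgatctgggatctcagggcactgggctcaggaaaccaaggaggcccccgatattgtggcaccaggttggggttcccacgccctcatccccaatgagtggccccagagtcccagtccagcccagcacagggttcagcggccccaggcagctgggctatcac
Mgll, chr6:88724162-88724411, plus strand: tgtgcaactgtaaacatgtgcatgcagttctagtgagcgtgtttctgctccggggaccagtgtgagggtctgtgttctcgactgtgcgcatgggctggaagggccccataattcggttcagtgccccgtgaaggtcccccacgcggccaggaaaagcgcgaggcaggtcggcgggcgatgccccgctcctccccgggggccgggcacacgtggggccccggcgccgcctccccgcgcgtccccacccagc
Windows of 300 bases, 250 before and 50 after the start, were listed for 8 of the 10 genes, 11 windows in all, and Dgat1 and Dgat2 had no entry. AGGTCA on either strand was in the windows of Plin5, Plin2 and Abhd5, 3 of 8 genes and 4 of 11 windows, against 16.3% of all 32851 windows. Positions are counted from the RefSeq start of each window. For Plin5, Plin4 and Plin2 that start lies inside the GENCODE gene model and so past the end of the printed run. Plin5 had it at -170 on its own strand and at 14 in a second window, Plin2 at -218 and Abhd5 at -69, both on the opposite strand. The PPAR element consensus, a direct repeat of that hexamer with 1 base between (0.0396% of all windows), a looser form of it with any base at the fourth place of each repeat (0.381%), and the ERR element TCAAGGTCA (0.423%) were in none of the 11. The first and the last contain the hexamer. A match describes letters in a window and not a bound site.

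**Figure D2:**
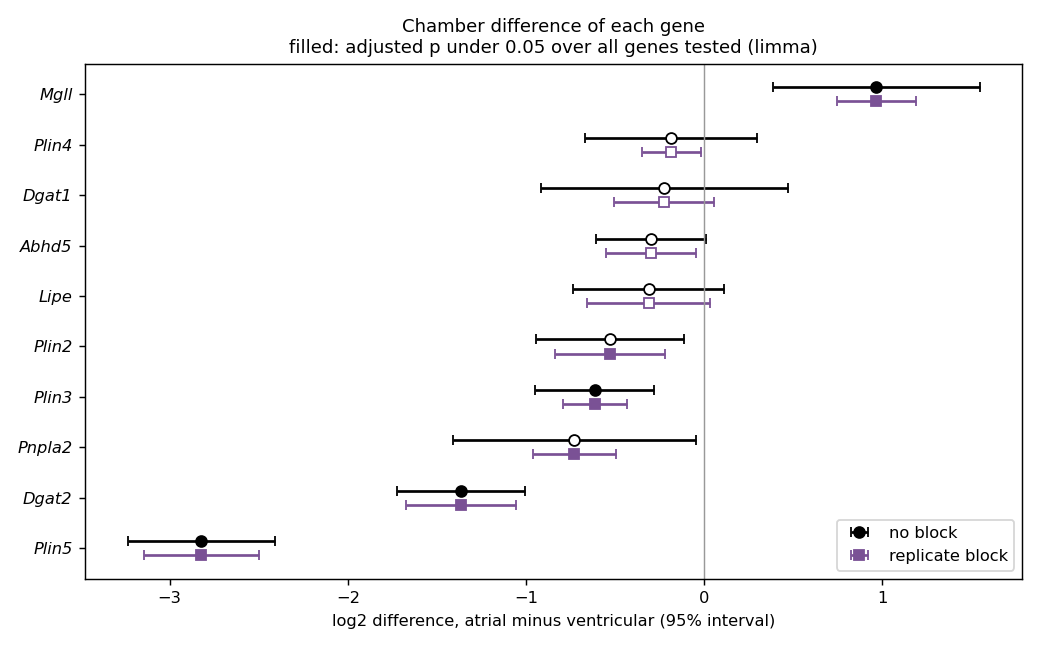
Log2 difference, atrial minus ventricular, of each of the 10 genes with its 95% interval from limma, without a block (black circles) and with the replicate number as a block (purple squares); filled symbols have an adjusted p under 0.05. Plin5 at -2.82 and Dgat2 at -1.36 lie farthest to the ventricular side, Mgll at 0.97 is the only estimate on the atrial side, and Plin2 and Pnpla2 are filled with the block only.

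Per length of exon, Plin5 was the lowest of the 4 perilipins in 5 of 5 atrial libraries and was above Plin2 in 5 of 5 ventricular libraries. It stood at 10.7 ± 1.41 normalized reads per kb in atrial and 79.9 ± 17.3 in ventricular cells (SD, n = 5). It made up 6.62% ± 1.47 of the summed perilipin level per kb in atrial libraries and 27.6% ± 6.99 in ventricular libraries. The shares were 20.8% and 17.0% for Plin2, 37.4% and 32.5% for Plin3, and 35.2% and 23.0% for Plin4, as means of atrial and ventricular libraries. The ratio of Plin5 to Plin2 per kb was 0.235 to 0.412 in atrial and 1.21 to 1.92 in ventricular libraries, with means of 0.322 ± 0.0856 and 1.62 ± 0.329. These ratios depend on the lengths used, and with the longest transcript of each gene the means were 0.182 and 0.915. Plin5 then lay below Plin2 in ventricular replicates 1 and 2 (ratios of 0.747 and 0.682). It lay narrowly above Plin2 in ventricular replicates 3 to 5 (1.09, 1.02 and 1.03). The perilipin of white fat, Plin1, was at 0 in 8 of 10 libraries and at most 6.90 normalized reads, in atrial replicate 1.

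**Figure D3:**
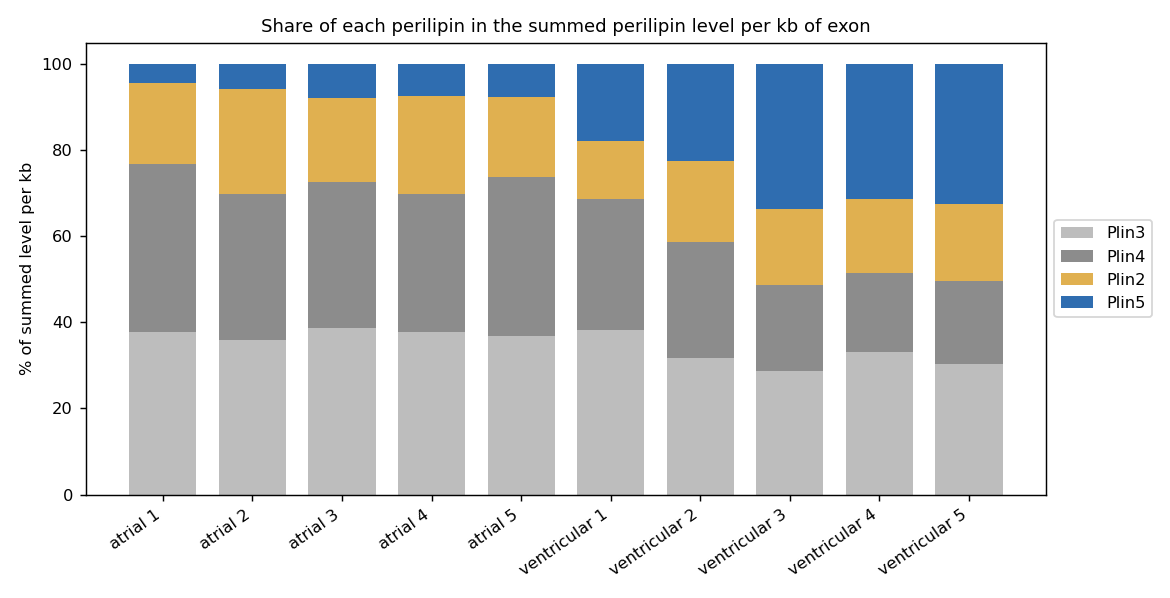
Share of Plin3, Plin4, Plin2 and Plin5 in their summed level per kb of exon, in percent, with 1 bar for each library. The Plin5 part (blue) averages 6.62% in the 5 atrial and 27.6% in the 5 ventricular libraries, and it is smaller in ventricular replicates 1 and 2 than in replicates 3 to 5.

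Of the acyltransferases, Dgat2 was higher in ventricular cells, and Dgat1 did not pass the test. Dgat2, an enzyme of the endoplasmic reticulum and droplet surface that esterifies mainly newly made fatty acids (ENSMUSG00000030747, chromosome 7, 99153658 to 99182719, minus strand), stood at 92.4, 83.5, 89.8, 88.4 and 84.3 normalized reads in atrial replicates 1 to 5. In ventricular replicates 1 to 5 it stood at 242, 295, 270, 170 and 185. The atrial libraries lay close together, the ventricular ones were spread, and the groups did not overlap. The means were 87.7 ± 3.75 and 232 ± 53.7 (SD, n = 5), 2.65-fold, and the log2 difference came to -1.36 ± 0.16 (SE; limma's adjusted p = 0.000272). It was -1.59 in replicates 1 and 2 (adjusted p = 0.0105) and -1.21 in replicates 3 to 5 (adjusted p = 3.95e-06), and Dgat2 was called under all 22 alternative settings.

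Dgat1, the structurally unrelated enzyme that mainly re-esterifies fatty acids from outside the cell (ENSMUSG00000022555, chromosome 15, 76502015 to 76511953, minus strand), stood at 110, 66.2, 44.3, 43.6 and 51.5 normalized reads in atrial replicates 1 to 5 and at 131, 68.2, 55.8, 58.8 and 54.4 in ventricular replicates 1 to 5. Replicate 1 was the highest in both chambers. The log2 difference was -0.22 ± 0.31 (limma, adjusted p = 0.758; 95% interval -0.92 to 0.47), and 0.00 without ventricular replicate 1. Per kb of exon Dgat2 was 1.54 ± 0.508 times Dgat1 in atrial and 3.43 ± 1.17 times in ventricular libraries (SD, n = 5), with ranges of 0.830 to 2.01 and 1.83 to 4.79 that overlap through ventricular replicate 1.

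Of the 4 lipolysis genes Mgll passed the test, toward atrial cells, and Pnpla2, Abhd5 and Lipe did not. Pnpla2, which encodes ATGL and takes the first fatty acid from triglyceride (ENSMUSG00000025509, chromosome 7, 141455198 to 141460743, plus strand), stood at 148, 166, 366, 348 and 352 normalized reads in atrial replicates 1 to 5. In ventricular replicates 1 to 5 it stood at 318, 302, 554, 503 and 515. Replicates 1 and 2 were low in both chambers, so the groups overlapped while every pair was higher in the ventricular library, by 1.44 to 2.16 times. The means were 276 ± 109 and 438 ± 119 (SD, n = 5), with a log2 difference of -0.73 ± 0.31 that did not pass the test (limma, adjusted p = 0.159; 95% interval -1.41 to -0.05) and did with the replicate block (adjusted p = 0.000916). It was called within each library set, at -0.98 in replicates 1 and 2 (adjusted p = 0.0448) and -0.56 in replicates 3 to 5 (adjusted p = 2.20e-08). The difference between these effects did not pass the test (-0.43 ± 0.13, adjusted p = 0.104).

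Abhd5, which encodes the ATGL coactivator CGI-58 (ENSMUSG00000032540, chromosome 9, 122351608 to 122381524, plus strand), stood at 123, 153, 136, 151 and 154 normalized reads in atrial replicates 1 to 5 and at 152, 146, 198, 218 and 174 in ventricular replicates 1 to 5. Ventricular replicates 1 and 2 lay within the atrial range. Its log2 difference of -0.30 ± 0.14 did not pass the test with or without the block (limma, adjusted p = 0.211 without and 0.0731 with it; 95% interval -0.61 to 0.01). It was called within replicates 3 to 5 only (-0.41, adjusted p = 0.000406), where 26.6% of all genes were called toward ventricular cells. Its exons share 950 of 5956 bases with A730085K08Rik on the opposite strand, which averaged 1.16 normalized reads.

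Lipe, which encodes hormone-sensitive lipase, mainly a diacylglycerol lipase (ENSMUSG00000003123, chromosome 7, 25379527 to 25398710, minus strand), did not pass the test. It stood at 45.5, 69.1, 76.7, 64.3 and 74.0 normalized reads in atrial replicates 1 to 5 and at 69.2, 99.9, 91.1, 88.2 and 61.8 in ventricular replicates 1 to 5. The groups overlapped, and the log2 difference was -0.31 ± 0.19 (limma, adjusted p = 0.365; 95% interval -0.74 to 0.11). Its exons share 918 of 5886 bases with 4732471J01Rik on the opposite strand, which averaged 6.76 normalized reads against 74.0 for Lipe.

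Mgll, which encodes monoacylglycerol lipase, the last lipase of the sequence and the enzyme that degrades the endocannabinoid 2-arachidonoylglycerol (ENSMUSG00000033174, chromosome 6, 88724412 to 88828360, plus strand), was the 1 gene of the 10 that was higher in atrial cells. It stood at 200, 235, 425, 471 and 384 normalized reads in atrial replicates 1 to 5 and at 121, 134, 208, 195 and 190 in ventricular replicates 1 to 5. The groups overlapped by a small amount, between atrial replicate 1 and ventricular replicate 3, and each pair was higher in the atrial library. The means were 343 ± 119 and 170 ± 39.1 (SD, n = 5), 2.02-fold, and the log2 difference came to 0.97 ± 0.26 (SE; limma's adjusted p = 0.0314; 0.000166 with the replicate block). It was 1.10 in replicates 3 to 5 (adjusted p = 1.67e-12) and 0.76 in replicates 1 and 2, where it did not pass (adjusted p = 0.141; 3.09% of all genes were called toward atrial cells there).

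The Mgll call without the block was lost on leaving out 1 library in 5 cases. Adjusted p was 0.0822, 0.0800 and 0.0795 without atrial replicate 3, 4 or 5, and 0.0621 and 0.0695 without ventricular replicate 1 or 2, with log2 differences of 0.83 to 0.91. All 5 epicardial markers were higher in atrial libraries as well, with summed levels of 2273 to 5412 normalized reads in atrial and 294 to 1399 in ventricular libraries. Endothelial markers were divided: of 5 tested, Kdr (1.91) and Tek (1.01) were called toward atrial cells, while Pecam1 (-0.48), Cdh5 (-0.87) and Fabp4 (-1.37) had estimates toward ventricular cells, and the list median was -0.48. Fabp4 passed with the block (adjusted p = 0.0317), and within replicates 3 to 5 these 3 were called toward ventricular cells. The 6 endothelial markers summed to 859 to 2358 normalized reads in atrial and 358 to 1547 in ventricular libraries. Of 3 macrophage markers tested Csf1r was called toward atrial cells (1.86), and Cd68 (0.44) and Lyz2 (-0.28) were not called, with sums over 6 markers of 83.0 to 172 against 24.8 to 142. Within replicates 3 to 5 Cd68 was also called toward atrial cells (1.08, limma, adjusted p = 0.00140), and Lyz2 was not called (-0.52). In that set 26.2% of all genes were called toward atrial cells. The part of these cells in the Mgll difference was not tested.

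**Figure D4:**
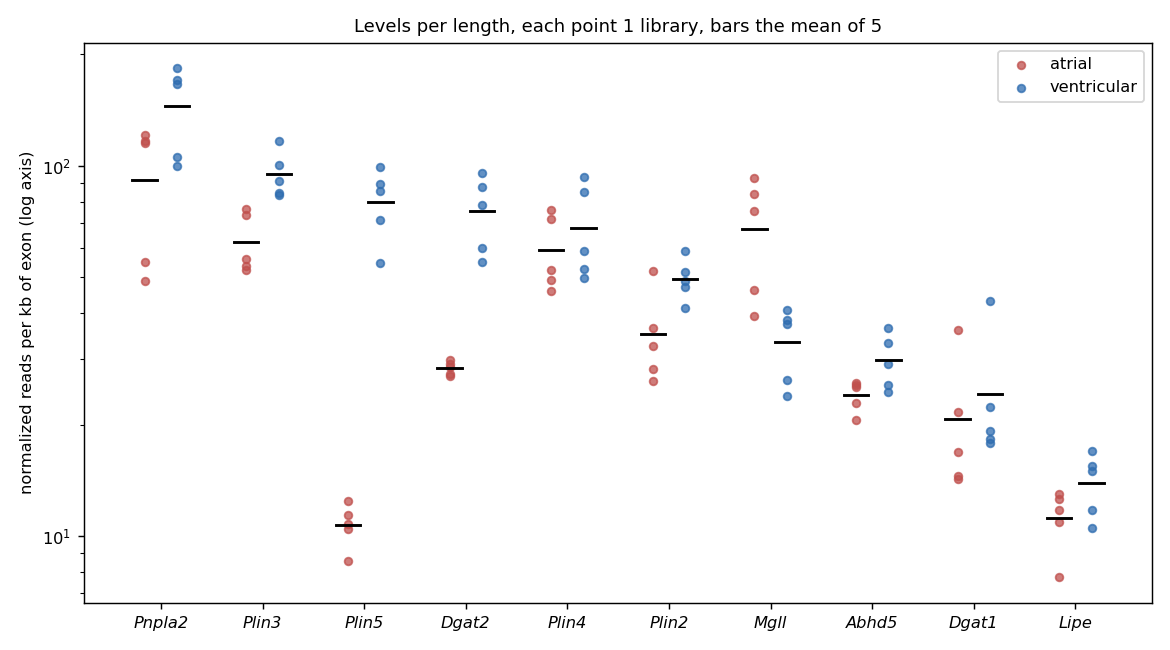
Normalized reads per kb of exon on a log axis, 1 point for each library and a bar for the mean of 5, with genes ordered by their ventricular mean. Pnpla2 is the highest gene in all 6 libraries of replicates 3 to 5 and lies below Plin3 in all 4 libraries of replicates 1 and 2. Plin5 has ranks of 9 to 10 in atrial and 2 to 5 in ventricular libraries.

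On the per-length scale the order of the genes differed between library sets. Within single libraries Pnpla2 was the highest gene in 6 of 6 libraries of replicates 3 to 5, and Plin3 was above it in 4 of 4 libraries of replicates 1 and 2, narrowly in ventricular replicate 2 (100.4 against 100.1). Mgll had ranks of 2 in atrial replicates 3 to 5 and of 4 and 5 in atrial replicates 1 and 2, and of 7 to 9 in ventricular libraries. By means over both sets Pnpla2 stood first in both chambers, 91.4 ± 36.2 normalized reads per kb in atrial and 145 ± 39.3 in ventricular cells (SD, n = 5). In atrial cells Mgll followed at 67.5 ± 23.5, then Plin3 (62.4), Plin4 (59.1), Plin2 (35.1), Dgat2 (28.4), Abhd5 (24.1), Dgat1 (20.7), Lipe (11.2) and Plin5 (10.7, all in reads per kb). In ventricular cells Plin3 followed at 95.2 ± 13.9, then Plin5 (79.9), Dgat2 (75.4), Plin4 (67.9), Plin2 (49.6), Mgll (33.4), Abhd5 (29.8), Dgat1 (24.1) and Lipe (13.9). Of the 9 neighbouring pairs in each order, 1 pair was apart by more than the summed SDs of its genes. It was Dgat2 over Abhd5 in atrial and Plin2 over Mgll in ventricular cells. The atrial order depends on the length used. Per kb of the longest transcript, Dgat2 averaged 38.8 and Abhd5 45.4 normalized reads in atrial cells. For the remaining neighbours the gap lay within the summed SDs, which include the spread between library sets. Some of them kept their order within single libraries all the same. Per kb of exon, Plin4 ranked above Plin2 and Dgat1 above Lipe in every library, and Lipe was the lowest in 5 of 5 ventricular libraries. The order of Plin4 and Plin2 turned with the longest transcripts. Plin2 then averaged 65.4 against 59.3 for Plin4 in atrial cells, and 92.2 against 68.2 in ventricular cells.

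The white adipocyte markers bear on these genes, which are abundant in fat. Of 8 such markers 6 (Plin1, Adipoq, Cidec, Lep, Retn and Cfd) were at 0 in at least 6 of 10 libraries. Their sum of 50.8 to 61.9 normalized reads in atrial and 3.72 to 55.4 in ventricular libraries included Acvr1c, at 30.3 to 61.9 in atrial and 3.10 to 5.35 in ventricular libraries, and the highest ventricular sum was that of replicate 1. The brown adipocyte marker Ucp1 was at 0 in 9 of 10 libraries. The 6 markers of that list summed to 125 to 157 in atrial and 239 to 401 in ventricular libraries. Of the 3 tested, Cidea and Dio2 were called toward ventricular cells and Slc36a2 toward atrial cells (42.6 against 8.53 normalized reads, 2.19, limma, adjusted p = 0.000394).

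Of 6 fibroblast markers 1 was called, Pdgfra toward ventricular cells (-2.01), with sums of 14772 to 18106 normalized reads in atrial and 6415 to 40904 in ventricular libraries. Within replicates 3 to 5 all 6 were called toward ventricular cells. The 6 smooth muscle and pericyte markers summed to 1663 to 6462 in atrial and 7657 to 13647 in ventricular libraries. These ranges do not overlap, as for Plin5, Dgat2 and Plin3, but Acta2 alone among the 6 had groups without overlap. It ran from 476 to 3870 in atrial and from 5628 to 12197 in ventricular libraries. Of these markers Acta2 was called toward ventricular cells (-2.87). Rgs5 (-0.99, limma, adjusted p = 0.331 without and 0.000898 with the block), Tagln (-0.63) and Pdgfrb (-0.19) had estimates toward ventricular cells. Cnn1 had an estimate toward atrial cells (1.76, adjusted p = 0.0696 without and 0.000100 with the block), as did Kcnj8 (1.31, adjusted p = 0.138). Within replicates 3 to 5 the calls were 4 ventricular and 1 atrial, where 26.6% and 26.2% of all genes were called. The part of these cells in the ventricular differences was not tested.

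The libraries numbered 1 had reads over 21576 genes in atrial and 19232 in ventricular cells, against 15950 to 16618 in the others, and the summed endothelial level was highest in them. Without both of these libraries, an alternative chosen after seeing the data, the same 4 genes were called (Plin3, Plin5 and Dgat2 ventricular, Mgll atrial), where 8.09% and 9.16% of all genes were called in these directions. None of the 10 genes differed between library sets in its chamber effect (limma interaction, adjusted p of 0.104 or more; 1 of 10 at an unadjusted p under 0.05, Pnpla2), and 5.21% of all genes tested did. All 10 estimates kept their sign in both sets.

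Other genes of the pathway were counted in 5 lists, 104 genes in the tables and 87 tested. Of these 13 went toward ventricular and 7 toward atrial cells (limma), with a median of -0.08 against -0.01 for all genes, and the counts were 25 and 19 with the replicate block. Shares of 14.9% and 8.05% stand against 6.56% and 8.12% of all genes, and the counts of each list are to be read against the same shares (16% and 16.3% with the block). The lists were written with earlier results of these data known, so the shares describe them and support nothing further.

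In glycerolipid synthesis 5 of 20 tested genes were called toward ventricular and 2 toward atrial cells, where 6.56% and 8.12% of all genes were called, with a median of -0.18. With the block the counts were 7 and 3 (16% and 16.3% of all genes). Acsl1, the main long-chain acyl-CoA synthetase of heart, averaged 2143 ± 144 and 4931 ± 540 normalized reads (SD, n = 5), 2.30-fold higher in ventricular cells (-1.20 ± 0.11 on the log2 scale, adjusted p = 3.99e-05 by limma). Gpam, the mitochondrial enzyme that starts glycerolipid synthesis, was 1.67-fold higher (-0.74 ± 0.09), and the acyl-CoA synthetases Acsl3 and Acsl4, of which ACSL3 sits on growing droplets, differed by -1.07 and -0.37. Gk, glycerol kinase, was the fifth. Toward atrial cells went Agpat5, an acyltransferase of lysophosphatidic acid (0.90 ± 0.12), and the acyl-CoA synthetase Acsl6, at 25.6 ± 3.81 against 3.53 ± 2.52 normalized reads. Gpat3, which like Gpam acylates glycerol 3-phosphate, and Lpin1, a phosphatidic acid phosphatase, did not pass the test (-0.16 and 0.27).

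Of 18 droplet shape and coat genes 2 were called in each direction, where 6.56% of all genes were called toward ventricular and 8.12% toward atrial cells, and the median was 0.06. With the block 3 were called toward ventricular and 7 toward atrial cells (16% and 16.3% of all genes). Cidea, a protein of droplet fusion and growth, averaged 63.7 ± 8.89 in atrial and 184 ± 49.7 in ventricular cells, in normalized reads (SD, n = 5), 2.89-fold (-1.48 ± 0.21, limma, adjusted p = 0.000866). Fitm1, the muscle form of a protein that helps droplets form, was 1.65-fold higher in ventricular cells (-0.73, adjusted p = 0.00456). Its wider relative Fitm2 went the other way without passing the test (0.67 ± 0.20, adjusted p = 0.0518; 0.00381 with the block). Tmem159, the promethin that works with seipin, was higher in atrial cells (0.81, adjusted p = 0.0257), as was the caveolar protein Cav1, 5.65-fold (2.51 ± 0.17, adjusted p = 4.50e-06), which endothelial cells also make in quantity. Seipin itself, Bscl2, did not pass (0.23, adjusted p = 0.283).

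Among lipases and their regulators 1 of 19 was higher in ventricular and 2 in atrial cells, with a median of 0.00 (4 and 5 with the block). Toward ventricular cells went the fatty acid binding protein Fabp3 (-2.12). The carboxylesterase Ces1d (3.10 ± 0.43, limma, adjusted p = 0.000758) and the lipase Abhd4 (0.50, adjusted p = 0.0368) went toward atrial cells. Ces1d averaged 35.5 ± 16.5 in atrial and 3.30 ± 2.34 in ventricular cells, in normalized reads (SD, n = 5). No ventricular library had more than 3 reads of it, so the size of its difference is imprecise. That difference was 3.99 in replicates 3 to 5 and 1.76 in replicates 1 and 2 (limma, adjusted p = 0.326). G0s2, the inhibitor of ATGL, averaged 157 ± 54.4 in atrial and 117 ± 83.9 in ventricular cells, in normalized reads (SD, n = 5) and did not pass without the block (0.58 ± 0.36, limma, adjusted p = 0.376; 0.0254 with the block). Replicate 2 was its highest library in both chambers, at 252 and 266, as it was for Plin2 and for Angptl4, the inhibitor of lipoprotein lipase (593 and 485 normalized reads). Per kb Pnpla2 was 0.577 ± 0.314 times G0s2 in atrial and 1.45 ± 0.725 times in ventricular libraries, and higher in the ventricular library of each pair, with ranges of 0.190 to 0.872 and 0.328 to 2.11. Hilpda, another ATGL inhibitor, stood near the filter (12.9 ± 2.52 and 16.8 ± 8.69).

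Of 11 genes of lipoprotein triglyceride uptake and export 2 went toward ventricular and 1 toward atrial cells, with a median of -0.29 (4 and 1 with the block). Cd36, the fatty acid translocase, was 1.73-fold higher in ventricular cells (-0.78 ± 0.12, limma, adjusted p = 0.00111), and Lmf1, which matures lipoprotein lipase, differed by -0.75 (adjusted p = 0.0323). The receptor Vldlr was 1.67-fold higher in atrial cells (0.72 ± 0.12, adjusted p = 0.00253). Lpl differed by -0.72 ± 0.36 and passed with the block and not without it (adjusted p = 0.241 without and 0.000108 with it), and Angptl4 averaged 228 ± 206 and 222 ± 152 normalized reads (SD, n = 5).

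Of 19 PPAR and related regulators 3 went toward ventricular and 0 toward atrial cells by limma (median -0.17), against 7 and 3 with the block. They were Mlxipl (ChREBP, a glucose-responsive activator of lipid synthesis genes), at 9.15 ± 4.25 and 49.2 ± 10.7 normalized reads (SD, n = 5), 5.38-fold, and Ppargc1b (-1.07) and Rxra (-0.68). Ppara, the PPAR of fat oxidation, differed by -0.68 and passed with the block and not without it (limma, adjusted p = 0.174 without and 0.000962 with it). Pparg, the PPAR of fat cells, averaged 1.10 in atrial and 5.67 in ventricular libraries, and its highest value, 27.7, was in ventricular replicate 1.

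**Figure D5:**
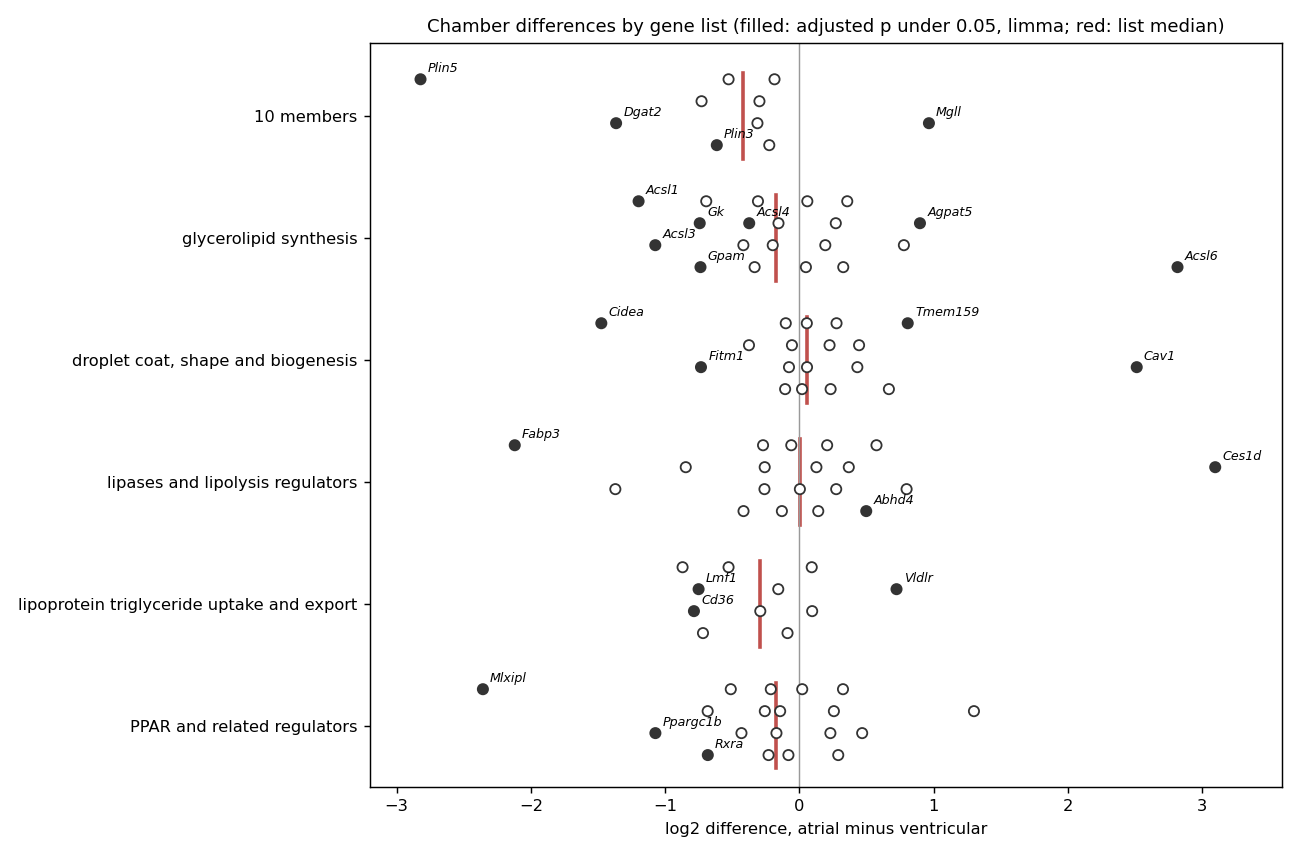
Log2 difference, atrial minus ventricular, of the 10 members and of the tested genes of 5 pathway lists, 1 point for each gene, filled and named where the adjusted p is under 0.05 (limma), with the list median in red. The median of the 10 members is -0.42 and those of the lists run from -0.29 to 0.06, with called genes on both sides in each list but the last.

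The genes whose values over the 10 libraries were most like those of Plin5, the member with the smallest adjusted p, were Lclat1 (Pearson r = 0.997 on the log2 scale), Lpar3 (0.993), Hadha (0.992), Coq5 (0.991) and Ephx2 (0.990). These coefficients describe 10 libraries that share chamber and library set, and no test was made. Lclat1, a cardiolipin acyltransferase, averaged 285 ± 33.2 in atrial and 1425 ± 236 in ventricular cells, in normalized reads (SD, n = 5). Hadha, a subunit of the mitochondrial trifunctional protein of fat oxidation, averaged 5568 ± 364 and 10614 ± 1110. Lpar3, a receptor for lysophosphatidic acid, had the largest fold of the 5, 13.9.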

How the data were processed

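RNA from atrial and ventricular cardiomyocytes of WT mice was sequenced, 5 libraries each, grouped by their titles. Trizol extraction and ScriptSeq v2 library preparation are named per the labels' protocols. Trimmomatic, HISAT2 and featureCounts were used on GRCm38 (mm10), per the submitters' processing notes; for their versions, the annotation and the strand setting, the sources used here give nothing. The deposited signal values are, per the file headers, counts of reads that were scaled with DESeq2 size factors. Dividing by the smallest step of each library gave whole reads for 100% of values (tolerance 0.01), and a value of 0 allows up to 3 reads, 1.70 to 10.4 normalized reads, for counting error only.

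The test was limma 3.58.1 (R 4.3.3, trend and robust variance, two-sided) on log2(normalized reads + 1), a scale that understates changes of low genes, with Benjamini-Hochberg adjustment over the 12422 genes with a mean of at least 10. edgeR 4.0.16 and DESeq2 1.42.0 on the recovered reads were alternatives, and all 3 were tested on simulated data. The simulated counts had the same dispersion for every gene and no division into library sets, so that test does not cover the division seen here. Folds are ratios of group means. Libraries of the same number deviated together (correlations of 0.556 to 0.637), and the number was also fitted as a block. Libraries of different numbers were not compared in this way, and both chambers share the division into library sets. The correlations therefore cannot tell pairing by number from library set, and no label states a pairing. No label ties replicates to different animals, and the p-values therefore cover the variation among these libraries alone, which may be technical. Positions and exon lengths are from GENCODE M21 (GRCm38). Members and lists were chosen with earlier results of these data known. Named genes were all members, up to 6 called genes of each list, or 2 where none was called, 16 anchors where they were measured, the 5 genes most like the leading member, and chamber markers. Genes called within a list beyond 6 are named without values.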

Additional observations from a re-analysis of the deposited data

Results flagged for a closer look

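Of 76 groups of 5 libraries (38 genes in 2 chambers), 9 had a library far from the other 4, with a gap above 0.71 of the range; chance flags about 1 in 20 groups. All lay in replicates 1 or 2. Dgat1 was far higher in ventricular replicate 1 (131) than in the other ventricular libraries (54.4 to 68.2), a gap of 0.82 of the range. In replicate 1 also stood Agpat5 (309 in atrial cells, low, gap 0.77), Mlxipl (16.6 in atrial cells, high, 0.758), Bscl2 (65.7 in ventricular cells, low, 0.753) and Lpin1 (219 in atrial cells, low, 0.836). Replicate 2 was far higher in both chambers for G0s2 (gaps of 0.77 in atrial and 0.854 in ventricular cells) and Angptl4 (0.85 and 0.759).

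The chamber difference of Cidea was unequal between library sets (limma interaction, adjusted p = 0.0378). Cidea stood at 77.2 and 67.7 normalized reads in atrial replicates 1 and 2 against 107 and 161 in ventricular ones, and at 56.0 to 60.8 against 208 to 227 in replicates 3 to 5, so it was higher in ventricular cells in both sets.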

How the results depend on the processing

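Over 22 alternative settings Plin5 ranged from -3.01 to -2.54 and Dgat2 from -1.59 to -1.21, and both were called in each. Plin3 was called in 17 settings, Mgll in 16, Plin2 and Pnpla2 in 4 each, Abhd5 in 1, and Plin4, Lipe and Dgat1 in 0. Members called were 5 ventricular and 1 atrial with the replicate block and 5 ventricular with library set as a term, 6 ventricular within replicates 3 to 5, and 0 atrial within replicates 1 and 2. On leaving out 1 library they ran from 2 to 4 ventricular and from 0 to 1 atrial. The replicate block, which treats libraries of the same number as pairs, changed no other member's call than Plin2 and Pnpla2.

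Genes called in all were 1991 ventricular and 2026 atrial with the replicate block, 1966 and 1989 with library set as a term, 3307 and 3254 within replicates 3 to 5, 254 and 384 within replicates 1 and 2, and 539 ventricular with equal totals, against 815 and 1009, and ran from 590 to 883 and from 761 to 1055 on leaving out 1 library. With equal totals 1014 were atrial. Pathway genes called were 25 and 19 with the block, 26 and 16 with library set as a term, 33 and 25 within replicates 3 to 5, 5 and 1 within replicates 1 and 2, and 11 atrial by DESeq2, against 13 and 7, and ran from 10 to 14 and from 5 to 9 on leaving out 1 library. The Plin5 to Plin2 ratio with the longest transcripts was 0.182 in atrial and 0.915 in ventricular cells.

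Signs turned for uncalled genes near 0. These were Angptl4 (0.0331 by DESeq2, 0.0329 by edgeR, 0.0931 within replicates 1 and 2, and from -0.52 to 0.25 on leaving out 1 library), Gpat3 (0.10) and Hilpda (0.0175) within replicates 3 to 5, and Dgat1 (from -0.45 to 0.00458 on leaving out 1 library). The cause was not tested.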
